A study of Mus musculus with 28 samples.

Results

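Libraries of the mouse ventromedial prefrontal cortex were ranked here by Mobp, the gene of myelin-associated oligodendrocytic basic protein, a structural protein of central myelin, and the 9 highest were set against the 9 lowest of 28. The libraries were chosen by the measured Mobp level in CPM, the usual scaling of counts to the library total, so every difference between them is a description and carries no p-value, and Mobp itself was left out of the comparison. The 9 Mobp-high libraries held 24.0 to 36.3 CPM (median 31.4), the 10 in the middle 8.69 to 23.6 CPM, and the 9 Mobp-low libraries 3.92 to 8.65 CPM (median 6.81). No gap lies at either limit: the last Mobp-high library had 24.0 CPM against 23.6 CPM in the next one down, and the first Mobp-low library had 8.65 CPM against 8.69 CPM in the next one up. Mobp lies on chromosome 9, at chr9:120149707-120181484 on the plus strand of GRCm38.

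Each library came from 1 female mouse whose ventromedial prefrontal cortex, virally infected, was punched from a coronal slice with a blunt needle. The 4 study groups of 7 mice were a virus labelled Slit1 KD after 3 days of sCVS, a stress procedure the labels give by this abbreviation, the same virus with no stress, a Lac_Z control virus after 3 days of sCVS, and Lac_Z with no stress. All mice carried a virus, and strain and age were not given in the sources used here. The labels do not say which cells the virus reached.

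Oligodendrocytes wrap axons in myelin, a stack of membrane rich in cholesterol and galactolipid that is held together by a small set of proteins. Mbp encodes a main structural protein, Mag and Mog encode adhesion proteins at its inner and outer face, and Myrf, Sox10 and Olig2 encode transcription factors of the lineage. The cortex holds these cells at lower density than the fibre tracts beneath it, so a punch can differ in how much tract it takes in. In a bulk sample, fewer oligodendrocytes and less RNA per oligodendrocyte cannot be told apart.

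Of the 100 measured genes of 4 oligodendrocyte lists (sheath proteins, lipid synthesis, transcription factors and mature markers), 77 had a higher mean in Mobp-high libraries, where 53% of all genes did. The members differed widely among themselves, so the libraries are called Mobp-high and Mobp-low and not high and low in myelin. Summed over the 100 genes, the Mobp-high libraries held 4650 to 5963 CPM (median 4882) and the Mobp-low libraries 4253 to 5451 CPM (median 4636), on values scaled by trimmed mean of M values (TMM). These ranges overlap, and so do those of Cldn11, Tspan2 and Ugt8a. Of the 107 genes of these lists, Omg, Nkx2-9, Trf, Evi2a, Desi1, Slc45a3 and Gm21984 did not pass the filter on low counts. Transcripts rich in G and C were higher in Mobp-high libraries, so the coding starts of 4 oligodendrocyte genes are shown first to compare their base composition: Mag, an adhesion protein of the inner myelin membrane, and Myrf, the regulator of myelin gene transcription, which separated the groups, and Tspan2, a tetraspanin of the sheath, and Ugt8a, the enzyme that makes galactocerebroside, which did not. Each line gives the first 120 coding bases from the GENCODE M21 transcripts of GRCm38, 5′ to 3′, with every G and C in capitals.
Mag: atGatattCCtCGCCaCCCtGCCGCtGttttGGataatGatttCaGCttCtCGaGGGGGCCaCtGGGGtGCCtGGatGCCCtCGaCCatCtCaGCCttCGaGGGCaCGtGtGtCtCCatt
Myrf: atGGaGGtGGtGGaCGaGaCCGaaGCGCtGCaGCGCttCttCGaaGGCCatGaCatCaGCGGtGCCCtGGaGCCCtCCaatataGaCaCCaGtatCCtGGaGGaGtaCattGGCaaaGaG
Tspan2: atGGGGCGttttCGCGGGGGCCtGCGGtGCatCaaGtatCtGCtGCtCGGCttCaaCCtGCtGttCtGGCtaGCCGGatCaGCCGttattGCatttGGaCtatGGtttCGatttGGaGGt
Ugt8a: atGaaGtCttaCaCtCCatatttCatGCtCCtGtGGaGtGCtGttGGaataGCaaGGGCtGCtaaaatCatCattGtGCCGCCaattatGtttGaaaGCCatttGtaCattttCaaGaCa
G and C made up 56.7% of the stretch from Mag, on the minus strand at chr7:30899176-30914873, and 56.7% of that from Myrf, on the minus strand at chr19:10208272-10240748. They made up 55% of the stretch from Tspan2, on the plus strand at chr3:102734529-102801513, and 40% of that from Ugt8a, on the minus strand at chr3:125865271-125938619. Over the longest annotated transcript, untranslated parts included, GC content was 57.6% for Mag, 57.6% for Myrf, 42.2% for Tspan2 and 38% for Ugt8a, and it was 53.3% for Mobp.

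Total counts ran from 30.6 to 44.3 M per library, with 38.5 to 44.3 M in Mobp-high and 32.0 to 41.6 M in Mobp-low libraries. The slope of a library's log2 CPM on transcript GC content, relative to the mean of all libraries, was -0.44 to 0.89 per 10 percentage points of GC in Mobp-high libraries (median 0.56) and -0.89 to -0.03 in Mobp-low libraries (median -0.60). Of the 9 Mobp-high libraries, 2 lay within the Mobp-low range of this slope, KD stressed replicate 7 and LacZ unstressed replicate 6. Genes of the mitochondrial genome took 2.3 to 6.4% of counts (median 3.94%) in Mobp-high and 5.81 to 10.5% (median 7.09%) in Mobp-low libraries. The first principal component of log2 CPM over all 28 libraries carried 58.8% of the variance. Drd2, the dopamine receptor of indirect-pathway striatal neurons, reached at least 5 CPM in 4 Mobp-high libraries (7.81 to 17.1 CPM) and in 0 Mobp-low libraries (0.952 to 3.34 CPM). The part of each of these in the differences below was not tested.

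**Figure D1:**
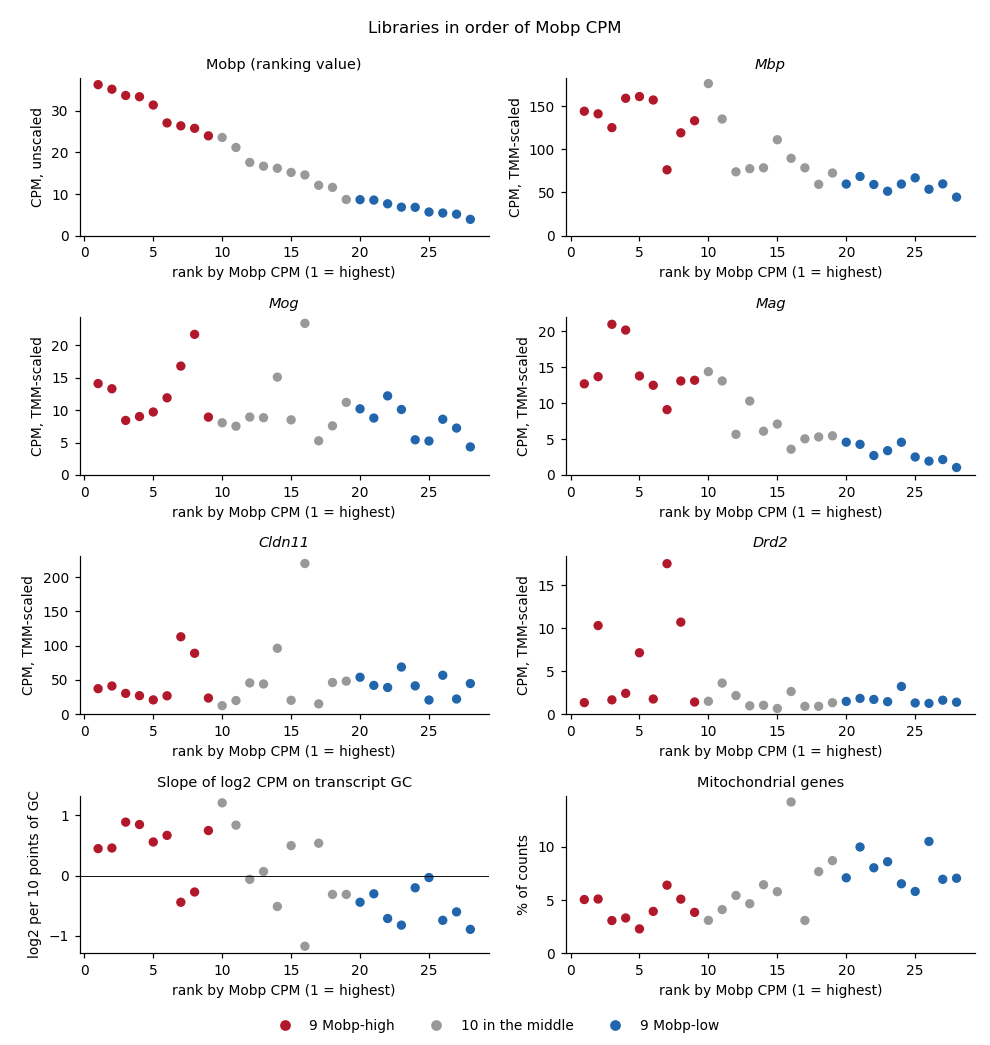
Each point is 1 of 28 libraries in order of Mobp CPM (horizontal axis, 1 is the highest), with Mobp-high in red, middle in grey and Mobp-low in blue; vertical axes give CPM, the slope on transcript GC in log2 per 10 percentage points, or the percent of counts. Mbp and Mag lie above all Mobp-low libraries in all 9 Mobp-high libraries, Cldn11 and Mog overlap, and 2 Mobp-high libraries have a GC slope below 0.

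Among proteins of the sheath, Mbp, which compacts the cytoplasmic faces of the membrane, had 76.2, 141 and 161 CPM (lowest, median, highest) in Mobp-high libraries and 44.6, 59.7 and 68.5 CPM in Mobp-low libraries. No library of one group reached the other, and the difference of mean log2 CPM was 1.19 ± 0.13 (SE, n = 9 each). Mag had 9.1, 13.2 and 21.0 CPM in Mobp-high libraries against 1.03, 2.70 and 4.56 CPM in Mobp-low libraries, again with no overlap and a difference of 2.33 ± 0.26. Cldn11, the claudin of myelin tight junctions, had 20.8, 30.3 and 113 CPM in Mobp-high libraries against 20.6, 42.0 and 68.8 CPM in Mobp-low libraries, a difference of -0.09 ± 0.34, or 0.28 unscaled. These ranges overlap, and only the 2 Mobp-high libraries with a negative GC slope, at 113 and 88.9 CPM, exceeded the highest Mobp-low library.

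Mog, on the outer surface of the sheath, had 8.41, 11.9 and 21.7 CPM in Mobp-high libraries against 4.32, 8.59 and 12.2 CPM in Mobp-low libraries, and these ranges overlap (difference 0.66 ± 0.23). Tspan2 averaged 60.4 ± 30.2 CPM in Mobp-high and 72.3 ± 24.3 CPM in Mobp-low libraries (SD, n = 9 each), a difference of -0.32 ± 0.27, or 0.05 unscaled. Mal, a myelin and lymphocyte proteolipid, averaged 60.0 ± 29.1 against 38.4 ± 11.5 CPM, with 5 of the 9 Mobp-high libraries above every Mobp-low one. Nfasc, the neurofascin of nodes and paranodes, averaged 134 ± 57.6 against 57.1 ± 11.4 CPM, with 8 of 9 above. Tppp, which binds tubulin, and Cd9, a tetraspanin, differed by -0.18 ± 0.12 and -0.10 ± 0.20. In all, 21 of 25 measured sheath genes had a higher mean in Mobp-high libraries, where 53% of all 19170 genes did, and 5 had no overlap, where 0.798% of all genes did. Beside Mbp and Mag, those 5 were Cnp, a phosphodiesterase of non-compact myelin, Cntn2, the axonal contactin beside the node, and Opalin, a glycoprotein of oligodendrocytes, named after their values were seen, with differences of 1.65 ± 0.22, 1.70 ± 0.25 and 1.23 ± 0.19. Of the Cnp span, 53.0% overlaps other genes, so its count is uncertain.

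For myelin lipid synthesis, 11 of 19 genes had a higher mean in Mobp-high libraries, which lies near the 53% of all genes. None separated the groups, and the median difference was 0.33 against 0.06 over all genes. Ugt8a had 21.9, 37.4 and 106 CPM in Mobp-high libraries and 26.5, 51.6 and 79.9 CPM in Mobp-low libraries. Of the Mobp-high libraries, 4 lay below every Mobp-low one and 2, those with a negative GC slope, lay above. Cers2, the ceramide synthase for very long chains, averaged 27.04 ± 4.45 against 17.04 ± 6.26 CPM and overlapped. Acsl3, an acyl-CoA synthetase, averaged 147 ± 46.7 in Mobp-high and 202 ± 37.97 CPM in Mobp-low libraries, and Elovl7, a fatty acid elongase, 18.8 ± 4.80 against 24.0 ± 4.18 CPM. Degs1 and Sptlc2, both of sphingolipid synthesis, and Enpp2, autotaxin, differed by -0.21 to -0.25, and Pla2g16, a phospholipase, by 0.33 ± 0.19. Summed, the list stood at 543.5 to 856.1 CPM in Mobp-high and 660.1 to 841.1 CPM in Mobp-low libraries.

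Of 15 transcription factors of the lineage, 12 had a higher mean in Mobp-high libraries, where 53% of all genes did. Without overlap 2 were higher, where 0.798% of all genes were, and the median difference was 0.37. Once each library was centred on genes of like GC content (GC centring), the median was -0.15. On that scale 7 of 15 were above 0, where 52.2% of all genes were, and 1 had no overlap. With each library's slope on GC content as a covariate (GC slope fit), the median was 0.43. In that fit 13 of 15 were above 0, where 52.6% of all genes were. Myrf had 2.10, 5.13 and 8.26 CPM in Mobp-high libraries and 0.419, 0.966 and 1.93 CPM in Mobp-low libraries, a difference of 2.30 ± 0.30. Carhsp1, an RNA-binding protein placed in this list, averaged 18.5 ± 3.70 CPM in Mobp-high and 7.24 ± 2.91 CPM in Mobp-low libraries, also with no overlap. Olig1, of the oligodendrocyte lineage, did not separate, at 9.52 ± 1.91 against 9.13 ± 1.74 CPM. St18, a zinc finger factor, averaged 54.7 ± 33.5 against 48.2 ± 17.2 CPM. Zfp24, Zeb2 and Yy1, which other cells also use, were lower in Mobp-high libraries, by 0.51 to 0.76 on the log2 scale, and each overlapped. Tcf7l2 and Zfp536 differed by 0.76 ± 0.23 and 0.59 ± 0.15, with 5 and 6 of 9 Mobp-high libraries above every Mobp-low one.

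By stage, the mature list had the highest median difference. Of its 41 measured genes, 33 had a higher mean in Mobp-high libraries, where 53% of all genes did, and the median difference was 0.86. Without overlap 7 were higher, where 0.798% of all genes were. After GC centring the median was 0.34 and 34 of 41 were above 0, where 52.2% of all genes were, but 0 were without overlap. In the GC slope fit the median was 0.60. The summed level of the list was 1861 to 2221 CPM in Mobp-high against 1624 to 1853 CPM in Mobp-low libraries, with no overlap. Apod, an apolipoprotein of glia, averaged 128 ± 35.7 CPM in Mobp-high and 56.6 ± 22.8 CPM in Mobp-low libraries, and 8 of 9 Mobp-high libraries exceeded every Mobp-low one. Kif5a, a kinesin that neurons use too, made up much of that sum, at 552 ± 185 against 289 ± 51.5 CPM. Car2, carbonic anhydrase, averaged 59.0 ± 15.6 against 58.7 ± 13.1 CPM, and Grm3, a glutamate receptor that astrocytes also use, 318 ± 58.0 against 532 ± 120 CPM. Newly formed oligodendrocyte markers were higher in mean for 12 of 18 genes (median 0.32, or -0.02 after GC centring and 0.10 in the GC slope fit). Precursor markers were higher for 10 of 16 (median 0.38, or 0.17 after GC centring and 0.09 in the GC slope fit). No gene of either list was without overlap, and the share of all genes with a higher mean was 53%. Pcdh15, Ptprz1 and Sox6, all of precursors, were at -0.91 ± 0.24, -0.40 ± 0.16 and -0.34 ± 0.16, and Cspg5 and Xylt1 at 0.44 ± 0.11 and 0.38 ± 0.19.

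Over the 4 lists together, 14 of 100 genes had no overlap, all of them higher in Mobp-high libraries. The median difference was 0.67, which is 0.61 above the median of all genes. Without TMM scaling the median of all genes was 0.42 and that of the 100 genes 1.04, which is 0.62 above it, so a difference between -0.4 and 0 such as that of Ugt8a (-0.34, or 0.03 unscaled) changes sign with the scaling. Over all genes, 153 were higher in every Mobp-high library than in any Mobp-low one and 77 lower (0.402% of the genes tested). Leaving out a library can only keep or raise these totals, since a gene without overlap stays so. The totals were 532 and 267 without KD stressed replicate 7, 246 and 138 without LacZ unstressed replicate 6, 296 and 360 without KD stressed replicate 4, and 259 and 142 without KD unstressed replicate 3.

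The differences followed the GC content of the transcript. With all genes split into 5 classes of equal size by GC content, the median difference was -0.64 in the poorest class (22.1 to 43.2% GC) and 1.12 in the richest (54.7 to 78.3% GC), with -0.27, 0.06 and 0.57 between them. Genes higher with no overlap numbered 1, 3, 13, 54 and 82 from the poorest to the richest class, and genes lower with no overlap 38, 25, 11, 2 and 1. The 100 oligodendrocyte genes followed the same order, with medians of -0.27, -0.08, 0.53, 0.89 and 1.65. In every class their median lay above that of all its genes, and 33 of them were in the richest class, where all 33 had a higher mean in Mobp-high libraries, against 4 of 12 in the poorest.

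Centring each library on genes of like GC content, in 20 bins, brought the median of the 100 genes to 0.31, against 0.02 for all genes, and 77 of 100 still had a difference above 0, where 52.2% of all genes did. The 5 that then had no overlap were Mbp, Mag, Myrf, Opalin and Cntn2, where 0.225% of all genes were higher and 0.418% lower with no overlap. Tspan2 was at 0.19 and Ugt8a at 0.48 on this scale, and neither separated the groups. Fitting the GC slope of each library as a covariate over the 18 libraries put Tspan2 at 0.92, Ugt8a at 1.15, Cldn11 at 1.34, Mbp at 0.68 and Mag at 1.59, and 88 of the 100 genes above 0, where 52.6% of all genes were. In this fit, 2 of the 9 Mobp-high libraries had a slope within the Mobp-low range.

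**Figure D2:**
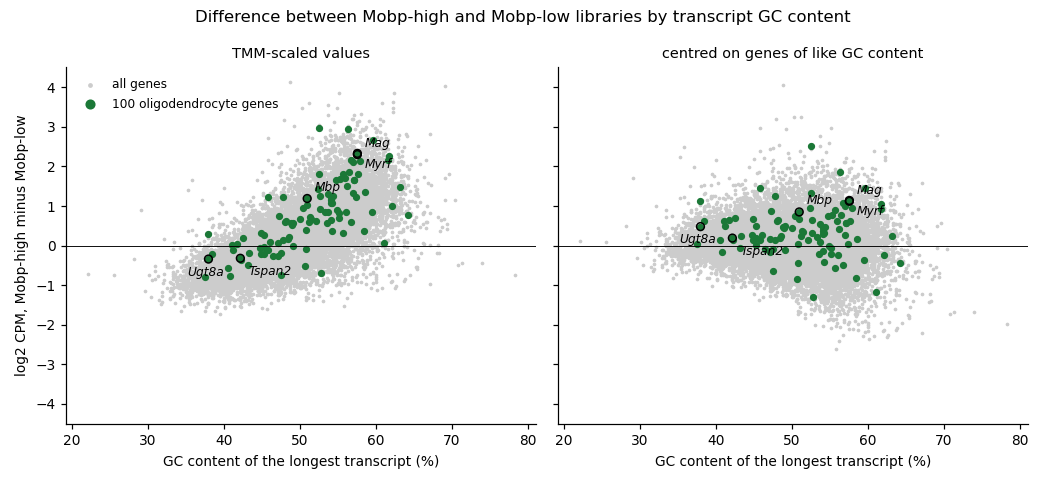
Each point is a gene, with the GC content of its longest transcript in percent on the horizontal axis and the difference of mean log2 CPM, Mobp-high minus Mobp-low, on the vertical axis; green points are the 100 oligodendrocyte genes and ringed ones are named. On the left the difference climbs with GC content, with medians of -0.64 and 1.12 in the poorest and richest class of genes, and on the right, after centring on genes of like GC content, Tspan2 and Ugt8a lie above 0 with Mag, Myrf and Mbp.

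The 2 Mobp-high libraries that shared the GC slope of the Mobp-low group were also compared alone. Set against the 9 Mobp-low libraries, they had a higher mean for 90 of the 100 genes, where 55.7% of all genes did, and for 43 of them both lay above all 9, where 3.82% of all genes did, with a median difference of 0.70. In these libraries Tspan2 was at 0.68, Cldn11 at 1.31, Mal at 1.5, Ermn, an actin-binding protein of mature oligodendrocytes, at 1.73 and Hapln2, of the nodal matrix, at 1.93 above the Mobp-low mean. These same libraries had the first and the third highest Drd2 of the 28, at 17.1 and 10.9 CPM. Isl1, a factor of cholinergic and striatal precursors, was at 13.3 and 4.23 CPM in them, against a highest value of 0.57 CPM in Mobp-low libraries, and for 12 of 16 striatal and 6 of 11 septal markers both libraries lay above all 9. With the 4 Drd2-rich libraries left out, 5 Mobp-high libraries remained, and 71 of 100 genes had a higher mean, where 51.4% of all genes did. Tspan2 was then at -0.69, Cldn11 at -0.50 and Ugt8a at -0.77, with Mag at 2.47 and Myrf at 2.41. These 5 libraries had GC slopes of 0.45 to 0.89, all above the highest Mobp-low slope of -0.03. In this set the Mobp level and the GC slope therefore cannot be told apart.

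The 10 libraries in the middle of the ranking entered neither group. Of the 100 genes, 58 had a higher mean in the 5 with more Mobp than in the 5 with less, where 55.5% of all genes did, and the median difference was 0.11. The count lies near that of all genes. Mag, Myrf and Mbp were at 0.83, 0.81 and 0.34, and Tspan2, Ugt8a, Cldn11 and Apod at -0.34, -0.36, -0.33 and -0.56. One middle library, KD unstressed replicate 7, held the highest Cldn11 (220 CPM) and Ugt8a (191 CPM) of all 28 with the highest mitochondrial share (14.2%).

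Ranking by another myelin gene chose partly different libraries. Ranking by Mbp, Mog or Cnp kept 7 of the 9 Mobp-high and 7 of the 9 Mobp-low libraries, and ranking by Mag kept 7 and 8.

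Outside the lineage, several lists had medians as high as the oligodendrocyte ones. For the counts of genes with a higher mean in the lists that follow, the share over all genes was 53%. It was 52.2% after GC centring and 52.6% in the GC slope fit. Of 15 microglia markers, 12 had a higher mean in Mobp-high libraries, with a median of 0.85, or 0.54 after GC centring. In the GC slope fit the median was -0.09 and 2 of 15 were above 0, so the direction turned. Their summed level was 623.3 to 1589 CPM in Mobp-high and 460.7 to 1362 CPM in Mobp-low libraries. P2ry12, Itgam and Gpr34 were not measured. Csf1r, the receptor that keeps microglia alive, averaged 122 ± 58.0 CPM in Mobp-high and 34.6 ± 20.4 CPM in Mobp-low libraries, and Cx3cr1 and Ctss differed by 0.17 and 0.00. Reactive and acute phase genes had the highest median, 1.37 (11 of 13 higher), with 1.09 after GC centring and 0.90 in the GC slope fit. Serpina3n, an astrocyte protease inhibitor of injury, averaged 80.2 ± 34.2 against 23.5 ± 16.5 CPM, and C3, complement, 73.4 ± 47.3 against 18.9 ± 20.8 CPM, with 5 of 9 Mobp-high libraries above every Mobp-low one for each. Their summed list ranged over 174.5 to 681.5 CPM in Mobp-high and 61.67 to 511 CPM in Mobp-low libraries.

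Cytotoxic T cell genes were higher in mean for 15 of 15 (median 0.80, or 0.86 after GC centring). This direction turned in the GC slope fit, with a median of -0.21 and 5 of 15 above 0, and the median was -0.02 with the mitochondrial share as a covariate. Trbc2, of the T cell receptor, stood at 15.1 ± 6.13 against 14.9 ± 5.86 CPM, and the summed levels of 96.56 to 380.2 CPM in Mobp-high and 30.68 to 412.2 CPM in Mobp-low libraries overlap. Markers of meninges and fibroblasts (15 of 16 higher, median 0.89), of choroid plexus and ependyma (9 of 10, median 0.94) and of vessels (16 of 20, median 0.65) were also higher in mean, and their medians in the GC slope fit were 0.61, 0.95 and 0.28. The summed levels of these 3 lists overlapped between the groups. In the same order, the median sums were 174.9, 196.1 and 501.6 CPM in Mobp-high libraries. In Mobp-low libraries they were 166.2, 205 and 583.3 CPM. Without the 4 Drd2-rich libraries, choroid plexus and ependyma markers were higher for 6 of 10 (median 0.37), where 51.4% of all genes were. Col1a2, a fibrillar collagen, reached 999 CPM in KD stressed replicate 2, with a median of 16.4 CPM in Mobp-high and 11.8 CPM in Mobp-low libraries. Astrocyte markers were higher for 7 of 17 (median -0.12, or 0.25 unscaled, 0.11 after GC centring and 0.07 in the GC slope fit). Aqp4, the water channel of astrocyte endfeet, averaged 309 ± 112 against 466.4 ± 122 CPM, and Slc1a3, a glutamate transporter, 805 ± 202 against 855 ± 160 CPM. Genes of fibrous and white matter astrocytes, a list that shares Aqp4, were higher for 13 of 15, with a median of 0.37. That median was 0.14 after GC centring and 0.16 in the GC slope fit. Without overlap 1 was higher, where 0.798% of all genes were. The summed levels of this list, 880.1 to 1200 CPM in Mobp-high and 587 to 1285 CPM in Mobp-low libraries, overlap. Gfap, of both astrocyte lists, was not measured.

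Neuronal genes split by gene. Synaptic vesicle and scaffold genes had a median of 0.88 (14 of 20 higher), or -0.05 after GC centring and -0.22 in the GC slope fit, where 3 of 20 were above 0. The 4 members with the highest mean CPM were nevertheless lower in mean in Mobp-high libraries. Pclo, a scaffold of the active zone, was at -0.50 ± 0.17, with Snap25, a SNARE protein, at 1110 ± 224 against 1979 ± 531 CPM, Syt1, the calcium sensor of release, at 2032 ± 281 against 3280 ± 850 CPM, and Homer1, a postsynaptic scaffold, at 346 ± 82.5 against 691 ± 208 CPM. Markers of excitatory neurons were at medians of 0.13 (upper layers), 0.25 (deep layers) and -0.06 (shared), which GC centring put at -0.22, -0.06 and -0.55 and the GC slope fit at -0.43, 0.38 and -0.48, while the shared list was at 0.31 unscaled. Mef2c, a factor of cortical neurons, averaged 946 ± 173 CPM in Mobp-high and 2029 ± 519 CPM in Mobp-low libraries, with 8 of 9 below every Mobp-low one, and Camk2a, a kinase of excitatory synapses, 396 ± 156 against 223 ± 65.2 CPM. Striatal markers had a median of 0.88 (14 of 16 higher) that stood at 0.26 without the 4 Drd2-rich libraries, and septal markers 0.55, or -0.29 without them. Summed, striatal markers stood at 463.2 to 880.9 CPM in Mobp-high and 439 to 697.2 CPM in Mobp-low libraries, and septal markers at 149 to 446.2 CPM in Mobp-high and 136.9 to 203.3 CPM in Mobp-low libraries. Interneuron markers had a median of -0.01 (0.36 unscaled, -0.28 after GC centring and 0.23 in the GC slope fit), and Gad2, which makes GABA, averaged 173 ± 138 against 155 ± 25.5 CPM. Genes of the axon beside myelin had a median of 0.46 (10 of 17 higher, near the 53% of all genes), or -0.07 after GC centring and -0.03 in the GC slope fit. Cntnap2 and Cntn1, adhesion proteins of the axon, were at -0.91 ± 0.23 and -0.57 ± 0.15. All 13 genes of the mitochondrial genome had a lower mean in Mobp-high libraries, with a median of -1.05, or -0.24 after GC centring. For mt-Co1, a subunit of cytochrome oxidase, that was 5435 ± 2160 against 10810 ± 2055 CPM.

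**Figure D3:**
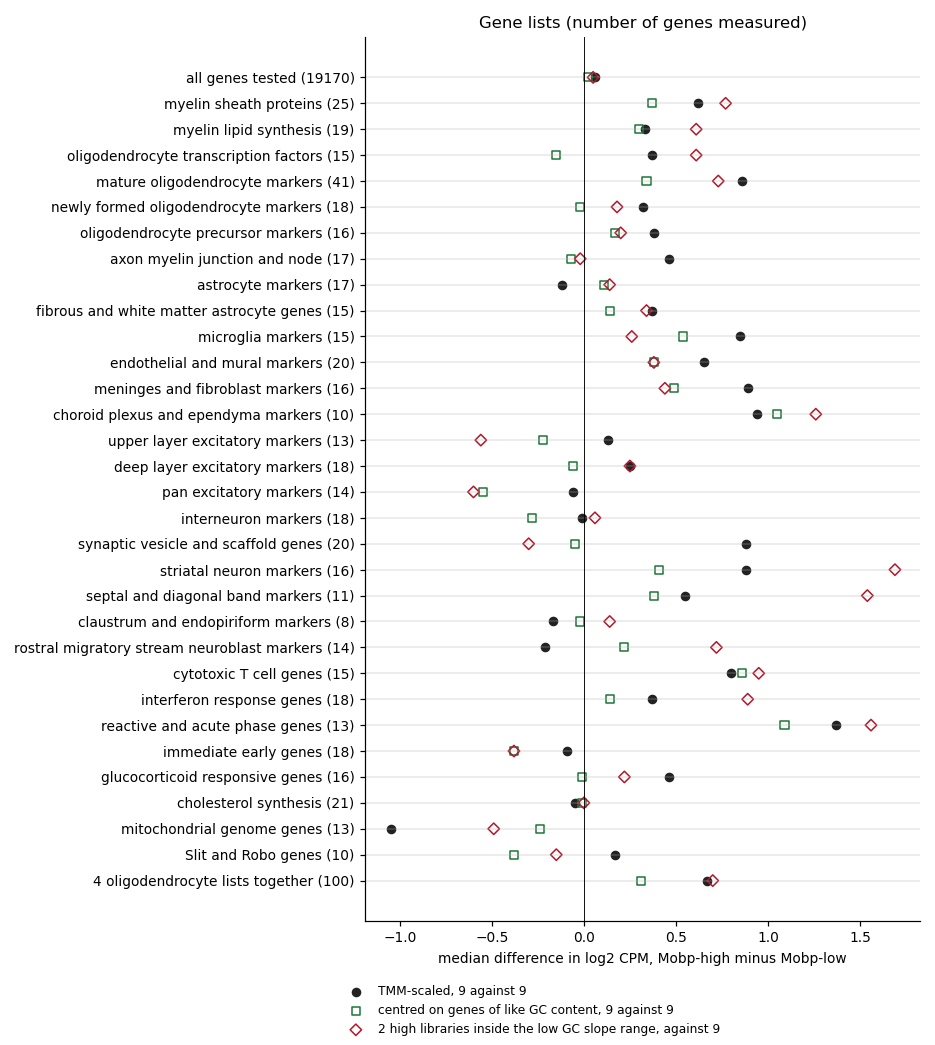
Rows are gene lists with the number of genes measured; the horizontal axis is the median difference in log2 CPM, Mobp-high minus Mobp-low, for TMM-scaled values (black), after centring on genes of like GC content (green) and for the 2 Mobp-high libraries inside the GC slope range of the Mobp-low group (red). Synaptic genes move from 0.88 to -0.05 with centring, and striatal markers stand highest in the 2 libraries, at 1.69.

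The largest differences among genes with no overlap, at a mean of at least 1 CPM, included 2 myelin genes in the 15 higher ones, Mag and Myrf. The others were Stra6, the retinol transporter, at 2.71 ± 1.05 CPM in Mobp-high and 0.488 ± 0.308 CPM in Mobp-low libraries (61.2% of its span overlaps other genes, so it is uncertain), Plin4, a lipid droplet coat protein (difference 2.46 ± 0.33), Cacna2d2, a calcium channel subunit (11.03 ± 3.55 against 2.46 ± 0.734 CPM), Itih3, a hyaluronan-binding inhibitor (17.3 ± 4.21 against 4.98 ± 2.32 CPM), Unc5b, a netrin receptor (2.08 ± 0.32), Psmb5, a proteasome subunit (1.82 ± 0.32), and Baiap3, Cdc42ep1, Tprn, Necab2, Col6a3, Asic4 and Slc13a3 (1.89 to 2.25). All 15 had transcripts of 51.5 to 63.6% GC. The 153 higher genes had a median GC content of 55.5% and the 77 lower ones 43.3%, against 48.7% for all genes. After GC centring, 19 of the 153 and 14 of the 77 still had no overlap, Mag, Myrf, Itih3 and Psmb5 among the 19.

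The 15 genes with the largest lower values included Pter, a phosphotriesterase-related protein, at 140 ± 33.2 CPM in Mobp-high and 453 ± 145 CPM in Mobp-low libraries, a difference of -1.66 ± 0.20. Vip, a peptide of cortical interneurons, averaged 30.2 ± 7.44 against 69.7 ± 17.2 CPM, and Cnr1, the cannabinoid receptor of axon terminals, 283 ± 47.2 against 571 ± 120 CPM. Hapln1, which links perineuronal nets, averaged 32.3 ± 10.2 against 73.1 ± 19.1 CPM, and mt-Rnr1, the small mitochondrial ribosomal RNA, 3270 ± 728 against 7271 ± 2662 CPM. Cntn4, an axonal contactin, Mal2, a transport protein, Wls, which carries Wnt proteins, Rgs13, Rad51ap2, Otud1 and Tceal7 were at -0.93 to -1.65. C1ql3, Syt4 and Rap2b were at -1.39, -1.33 and -0.98 and share more than 50% of their spans with other genes. Of these 15, Cnr1, C1ql3 and Syt4 kept no overlap after GC centring.

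**Figure D4:**
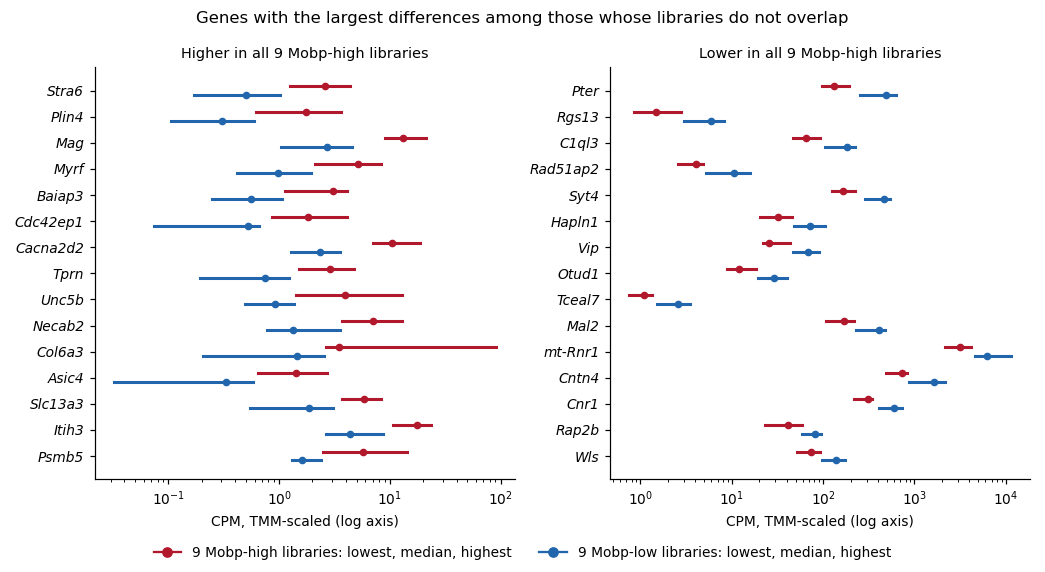
For each gene, bars run from the lowest to the highest library on a log axis of TMM-scaled CPM and points mark the median, for the 9 Mobp-high (red, upper) and 9 Mobp-low (blue, lower) libraries. By the choice of genes no bar pair overlaps; Col6a3 reaches 90.4 CPM in 1 Mobp-high library, KD stressed replicate 2.

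No test of the ranking against the study's groups passed. Of the 9 Mobp-high libraries, 5 carried the Slit1 KD label and 4 Lac_Z, and of the 9 Mobp-low libraries 4 and 5 (Fisher's exact test, two-sided, p = 1), and 4 Mobp-high libraries were stressed and 5 not, against 5 and 4 (p = 1). TMM-scaled Mobp averaged 15.7 ± 10.7 CPM in KD stressed, 19.7 ± 10.1 CPM in KD unstressed, 15.1 ± 6.93 CPM in LacZ stressed and 15.8 ± 7.59 CPM in LacZ unstressed libraries (SD, n = 7 each). The difference in log2 CPM was 0.06 for the KD label (permutation test, two-sided, p = 0.851, 14 libraries each) and -0.21 for stress (p = 0.505, permutation test). Within stress states and viruses the 4 comparisons of 7 against 7 gave exact permutation p-values of 0.477 to 0.91, and all 6 had an adjusted p of 0.91. The smallest p that 7 against 7 allows is 5.83e-04.

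Across all genes, edgeR's quasi-likelihood test called 0 of 19171 genes (0%) at an adjusted p under 0.05 for the KD label, 0 for stress and 0 for their interaction. At an unadjusted p under 0.05 there were 291, 424 and 68 genes, and DESeq2 also called 0, with 373, 606 and 73. Of the 100 oligodendrocyte genes, 50 had a log2 fold change above 0 for the KD label (median 0.00), 30 for stress (median -0.12) and 25 for the interaction (median -0.14), and 2, 4 and 0 reached an unadjusted p under 0.05. With log2 CPM of Mobp as a covariate, 46, 47 and 44 were above 0 (medians -0.01, -0.01 and -0.04). The share of all genes above 0 in these contrasts was not counted, so these counts have no background beside them. For stress the log2 fold change was -0.26 ± 0.23 for Mbp, -0.38 ± 0.33 for Ugt8a and -0.48 ± 0.41 for Myrf, and for the KD label -0.01 ± 0.23, -0.03 ± 0.33 and 0.08 ± 0.40, all with an adjusted p of 1. With the GC slope of each library as a covariate, 11 of the 100 reached an unadjusted p under 0.05 for stress. In that fit 1954 of all 19171 genes did, a like share. The smallest adjusted p among the 100 was 0.411.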

How the data were processed

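Per the file headers, each of 28 deposited tables gave unnormalized fragment counts by gene from featureCounts 1.6.2, summed over full gene spans annotated by Ensembl 90 on GRCm38. Pairs counted once, no strand setting was used, and the input alignments were named as sorted and free of duplicates. The submitters' processing notes also list HISAT2, Subread and DESeq2. Counts therefore include intronic reads, a gene and its antisense partner cannot be told apart, and a gene inside another is mostly listed at 0, as for 12185 genes that lie inside another. The files held 52636 genes, and 52403 identifiers matched a symbol.

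The 9 libraries highest and 9 lowest in unscaled Mobp CPM were compared. filterByExpr by group kept 19171 genes, 19170 without Mobp. Differences are of mean log2 CPM (TMM scaling, prior count 2) with standard errors, on which low genes are understated, and a gene without overlap had all 9 libraries of one group above all 9 of the other. Transcript GC content came from GENCODE M21 for 19119 genes. The 30 gene lists (522 symbols, 480 measured) and the ranking were chosen with earlier results of these data known. Named were the 8 members with the highest mean CPM in each oligodendrocyte list, up to 4 in each other list, and the 15 largest differences each way without overlap at a mean of at least 1 CPM, leaving out predicted genes; other genes were named after their values were seen.

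Study labels were tested in R 4.3.3 by the robust quasi-likelihood test of edgeR 4.0.16 on a 4-group model with Benjamini-Hochberg adjustment over all genes, DESeq2 1.42.0 as an alternative, and permutation (100000 resamples, or exact for 7 against 7) and Fisher's exact tests in scipy 1.17.1. The scripts were tested on simulated data. The labels name individual mice and no lane per library. Replicates are numbered within each group in the order of deposit.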

Additional observations from a re-analysis of the deposited data

Results flagged for a closer look

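Among 352 sets of 9 values (a named gene in the Mobp-high or the Mobp-low libraries), 16 held a library set apart from the rest by Dixon's criterion, where chance gives about 1 in 20. In Mobp-high libraries, KD unstressed replicate 2 was high in Frmd4a (956 CPM), Pde10a (480 CPM), Fyn (232 CPM), Mertk (128 CPM), Flt1 (76.2 CPM) and Tcf7l2 (70 CPM). KD stressed replicate 2 was high in 2 collagens, Col1a2 (999 CPM) and Col6a3 (90.4 CPM). KD stressed replicate 7 was low in Mbp (76.2 CPM) and in Rsph1 (1.06 CPM).

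In Mobp-low libraries, LacZ unstressed replicate 7 was high in Kl (4.16 CPM) and low in Col6a3 (0.205 CPM) and Spp1 (2.32 CPM). KD unstressed replicate 3 was low in Vcan (69.1 CPM) and stood apart in Slc17a6 (6.57 CPM). KD stressed replicate 6 was low in Asic4 (0.0322 CPM).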

How the results depend on the processing

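The counts of 153 genes higher and 77 lower with no overlap changed with most settings. They were 256 and 23 with unscaled CPM, 329 and 219 for 7 against 7, 1 and 0 for 14 against 14, 231 and 42 after adjustment for the first principal component, and 587 and 307 without the libraries that stand apart (KD stressed replicates 2 and 7). Ranked by Mbp they were 3827 and 2613, ranked by Mog 6 and 0, and ranked by TMM-scaled Mobp 25 and 6. Upper-quartile factors gave 128 lower genes. Of the settings added after seeing the data, GC bins gave 43 higher genes, leaving out the Drd2-rich libraries 4510 and 2990, and the 2 Mobp-high libraries inside the Mobp-low GC slope range 732 and 656. Leaving out each of the 18 libraries gave 155 to 532 higher and 78 to 360 lower genes. The median of the 100 oligodendrocyte genes (0.67) was 1.04 with unscaled CPM, 0.44 ranked by Mbp, 0.47 for 14 against 14, 0.51 after adjustment for the GC slope, 0.51 for the first principal component and 0.31 in GC bins, and 0.63 to 0.72 with each library left out. The KD label difference in Mobp (0.06) was -0.02 for Mbp and -0.22 for Mog, that in unstressed mice (0.23) was -0.10 for Mog, and that of stress with LacZ (-0.04) was 0.01 with unscaled CPM. The edgeR counts stayed at 0 in every setting run. No paired analysis was possible because the labels give no replicate numbers shared across groups. The cause was not tested. In 7 against 7, the 2-library set and the sets with libraries left out, the counts of genes without overlap could only stay or rise, since libraries were only removed.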

Other observations

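Of the 8 libraries that come first or second in order of deposit within their study group, 6 were Mobp-high and 0 Mobp-low, and of the other 20, 3 were Mobp-high and 9 Mobp-low. The labels give no meaning to this order, and it was looked at after the values were seen.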
